A study of Mus musculus with 9 samples.

Results

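The NF-κB family members measured here were 10 genes taken by name from a table of TPM (transcript abundances scaled to length and to a fixed total per sample) for 55401 mouse genes. They comprised the DNA-binding subunits Nfkb1, Nfkb2, Rela, Relb and Rel, the cytoplasmic inhibitors Nfkbia, Nfkbib and Nfkbie, the nuclear IκB protein gene Nfkbiz, and Tnfaip3, which encodes the ubiquitin-editing enzyme A20. All 10 were among the 12819 genes tested, those whose TPM averaged at least 1 over the samples. The cells were RAW264.7 macrophages, a mouse line derived from a tumor induced by Abelson murine leukemia virus, with the genotype labelled WT. They were treated for 24 h, per the labels, with DMSO alone (the vehicle), with DMSO + LPS (LPS, a bacterial wall component that activates macrophages), or with LPS and skatole, an indole compound (LPS + Ska). The study's methods section gives a longer time for the sequenced cells. Each group had 3 samples, numbered 5, 6 and 7, from 1 cell line, and nothing in the labels says that they came from separate cultures, so p-values measure the spread between these samples, which may be technical. No group received skatole without LPS. The comparisons ask how LPS changed the messenger RNA of these genes, and how skatole changed it in the presence of LPS.

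NF-κB proteins act as dimers. Nfkb1 and Nfkb2 encode precursors that are processed to p50 and p52, and Rela, Relb and Rel encode the subunits with a transactivation domain. In resting macrophages IκB proteins hold these dimers in the cytoplasm; signals such as LPS activate the IκB kinases, IκB is degraded and the dimers enter the nucleus. Nfkbia and Tnfaip3 are themselves classical NF-κB targets and restrain the signal that induced them. Messenger RNA levels carry no information on phosphorylation, processing or location of the proteins.

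Some properties of the table bear on every value. In the LPS group, replicate 5 was the mean of replicates 6 and 7 within 1e-05 TPM in 17950 of 17950 genes with both above 0, and the same held for 17658 of 17658 genes in the LPS + Ska group. All 10 members were tied in this way in both groups, and none in DMSO. For any gene a treated group thus carries no more than 2 independent values. Tests were repeated on 2 recovered values, replicate 5 plus and minus its distance from replicate 7 (replicate 6 where 7 was 0), divided by 2. The tie failed at 0, as for Cd79a in LPS, with 0.0365, 0.110 and 0 TPM in replicates 5, 6 and 7. Whether replicates 6 and 7 are measured samples is not known. Leaving out a treated column does not remove its value, which the other 2 columns still hold. Sequencing depth cannot be read from TPM, so it is unknown and counting error cannot be given. A column's TPM summed to between 999895 and 1000145. Among the DMSO samples, replicate 7 had the highest level of 8 of the 10 members. The share of all tested genes in which it was highest was not computed. Replicate 7 exceeded both other DMSO samples by more than 1.5 times in 2 members, Nfkbiz and Tnfaip3. Over all tested genes it did so in 2.43%, against 3.04% for replicate 5 and 2.92% for replicate 6. Of 10 macrophage markers 9 had at least 1 TPM in every sample, while Mertk was listed at 0 in all. Of 16 markers of B cells, T cells, fibroblasts and epithelium, 11 were listed at 0 in all columns and no single value exceeded 0.672 TPM. The summed level of the macrophage markers ranged from 12429 to 13398 TPM in DMSO, from 7375 to 7773 in LPS and from 13690 to 13949 in LPS + Ska. Lyz2, lysozyme, took most of that sum, with 8866 to 9673 TPM in DMSO, 4219 to 4627 in LPS and 9915 to 10207 in LPS + Ska; the part of this shift in the results was not tested. With LPS 3 of the 9 markers fell, and in LPS + Ska compared with LPS 1 rose and 1 fell (limma). TPM are shares of a fixed total, and in bulk RNA fewer cells of a type and less RNA per cell cannot be told apart.

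Promoter sequences are shown because the family is known to act on its own genes. RefSeq promoter windows of GRCm38.p6, from 250 bases before to 50 after each start site, were found for 7 of the 10 members (Nfkb2, Rela, Rel, Nfkbia, Nfkbib, Nfkbie and Tnfaip3). Nfkb2 had 3 windows and Tnfaip3 had 2, for different start sites, and 1 of each is shown. Nfkb1, Relb and Nfkbiz are named only. The κB consensus, a motif of 10 bases searched on both strands, had a match in 5 of these 7 genes (Nfkb2, Rel, Nfkbia, Nfkbie and Tnfaip3), and in none of the windows of Rela and Nfkbib. Over all 32851 windows 4.51% held a match, and 5.14% of 27025 genes did so. Stretches before the start sites follow 5′ to 3′ on the gene's strand, without bases that an annotated exon covers. For Nfkb2, whose window lies in an annotated exon, 30 bases around the match are given. Capitals mark consensus matches, and Rela is shown as a gene with none.
Nfkbia, chr12:55492648-55492897, minus strand: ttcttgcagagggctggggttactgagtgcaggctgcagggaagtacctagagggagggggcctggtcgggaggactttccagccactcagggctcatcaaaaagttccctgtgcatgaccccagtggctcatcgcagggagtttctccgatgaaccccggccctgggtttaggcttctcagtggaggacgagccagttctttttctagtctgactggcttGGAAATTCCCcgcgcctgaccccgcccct
Nfkb2, chr19:46304688-46304717, plus strand: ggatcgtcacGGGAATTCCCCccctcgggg
Rel, chr11:23770971-23771219, minus strand: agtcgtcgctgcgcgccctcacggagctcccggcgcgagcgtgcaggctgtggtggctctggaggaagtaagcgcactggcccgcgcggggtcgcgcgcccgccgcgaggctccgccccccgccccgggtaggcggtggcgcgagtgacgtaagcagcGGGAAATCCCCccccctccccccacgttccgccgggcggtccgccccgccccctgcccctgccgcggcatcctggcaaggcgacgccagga
Nfkbie, chr17:45555450-45555699, plus strand: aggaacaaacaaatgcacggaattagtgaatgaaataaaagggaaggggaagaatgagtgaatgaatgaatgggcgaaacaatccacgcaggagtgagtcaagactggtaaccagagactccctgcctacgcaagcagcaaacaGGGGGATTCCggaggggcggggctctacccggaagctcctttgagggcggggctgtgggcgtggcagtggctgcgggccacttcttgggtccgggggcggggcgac
Tnfaip3, chr10:19015411-19015547, minus strand: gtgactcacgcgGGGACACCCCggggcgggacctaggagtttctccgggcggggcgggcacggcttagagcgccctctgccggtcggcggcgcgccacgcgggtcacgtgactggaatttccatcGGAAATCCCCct
Rela, chr19:5637291-5637482, plus strand: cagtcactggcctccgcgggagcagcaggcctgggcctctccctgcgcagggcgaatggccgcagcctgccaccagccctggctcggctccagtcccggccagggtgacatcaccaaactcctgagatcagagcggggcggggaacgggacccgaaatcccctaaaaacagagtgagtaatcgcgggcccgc
The Nfkbia match started at position -29 from the start site, the Nfkb2 match shown at -39 (with a further one at -11), that of Rel at -92 and that of Nfkbie at -106, and Tnfaip3 had matches at -125 and -12. In Nfkb2 and Rel the first match in capitals read on both strands. A second match, on the strand opposite to the gene, overlapped it by all but 1 base, so the capitals run on for 1 base more. The windows not shown held matches in Nfkb2 and none in Tnfaip3. A match describes these letters, not binding.

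Nfkbia was the most abundant of the 10 transcripts in every group and Nfkb1 the next. Their mean levels were 149.9 and 82.8 TPM in DMSO, 210.5 and 143 TPM in LPS, and 147 and 99.5 TPM in LPS + Ska, which TPM scales per transcript length. In DMSO the order went on with Rela (69.5 TPM), Nfkbib (46.9), Nfkb2 (39.2), Relb (21.0), Rel (19.8), Nfkbie (12.9), Nfkbiz (12.1) and Tnfaip3 (9.12). Relb and Rel did not differ beyond the spread of their samples, nor did Nfkbie, Nfkbiz and Tnfaip3 in their order. In LPS, Nfkbib took the third place (59.8 TPM), ahead of Rela (43.1) and Nfkbiz (41.0), whose samples overlapped, and Rel (35.7) overlapped with Nfkb2 (35.0). Relb (21.3), Tnfaip3 (12.7) and Nfkbie (10.7) closed the order in LPS without overlap. In LPS + Ska the order was Nfkbib (47.6), Rela (40.2), Nfkbiz (38.3), Nfkb2 (28.9), Rel (27.1), Relb (14.4), Tnfaip3 (6.86) and Nfkbie (6.60), with overlaps between Rela and Nfkbiz, Nfkb2 and Rel, and Tnfaip3 and Nfkbie. Nfkbia stood at the 91.7th percentile of the tested genes in DMSO, the 94.5th in LPS and the 91.8th in LPS + Ska.

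**Figure D1:**
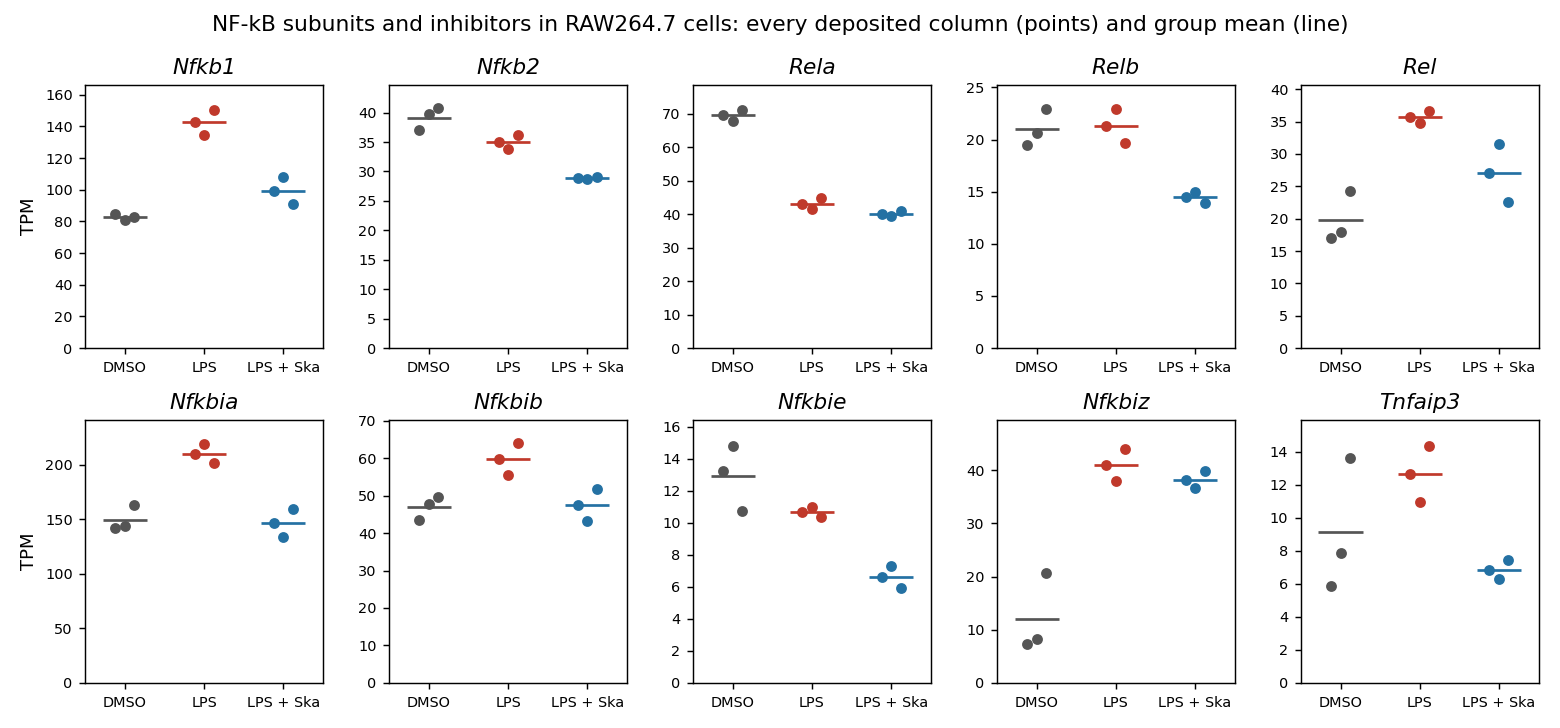
Level of each of the 10 genes in TPM (vertical axis, from 0, with its own scale for each gene) in the samples of the 3 groups. Points are the 9 samples, numbered 5 to 7 from left to right within a group, and lines are group means. Rela drops from 67.9 to 71.1 TPM in DMSO to below 45 TPM in both treated groups, and Nfkbiz lies above 36 TPM in both, against at most 20.6 TPM in DMSO.

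In LPS compared with DMSO, 3 members rose (Nfkb1, Rel and Nfkbiz), Rela fell, and the other 6 were not called. A gene was called when the Benjamini-Hochberg adjusted p from limma was below 0.05 and the fold change was above 1.5 or below 0.67. Nfkbia and Nfkbib had a limma adjusted p of 5.1e-04 and 0.0068, both higher, and missed only the fold limit. The 4 calls compare with 32.7% of all tested genes called in either direction, of which 1630 genes (12.7%) were higher and 2559 lower. The median log2 fold change was 0.42 over the members and -0.067 over all tested genes. All LPS samples lay above all DMSO samples in 5 members, against 30.3% of all tested genes, and under them in 2, against 38.6%.

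In LPS + Ska compared with LPS, Nfkbie and Tnfaip3 fell and no member rose, against 6.14% of all tested genes called lower and 3.35% called higher. The count of 2 was 1 on the recovered values and with no filter (Nfkbie alone), under median-ratio scaling (Tnfaip3 alone), and in 5 of the 9 fits with a sample left out. Median-ratio scaling also turned the balance over all tested genes, from 429 higher and 787 lower to 588 and 543. Without the limits on fold change, 7 members had an adjusted p below 0.05 (limma), all lower, against 19.7% of all tested genes. Of these, Nfkb2 and Tnfaip3 rose above 0.05 on the recovered values (limma adjusted p = 0.056 and 0.10). Nfkbib did so under median-ratio scaling (limma adjusted p = 0.082). With no adjustment 8 members had a p below 0.05, all of them lower, against 27.8% of all tested genes. The log2 fold change was below 0 in 10 of 10 members, against 62.9% of all tested genes. It stayed below 0 in each of the 9 alternatives that can move a fold change in this comparison, but under median-ratio scaling of the columns Rela and Nfkbiz came to -0.0021 and -0.00012. All samples of LPS + Ska lay under all LPS samples in 9 of the 10 members, against 34.0% of all tested genes, and the exception was Nfkbiz. The median log2 fold change was -0.46 over the members and -0.096 over all tested genes.

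In LPS + Ska compared with DMSO, Nfkbiz rose and Rela and Nfkbie fell. Over all tested genes 11.4% were called higher and 25.3% lower. The median log2 fold change was -0.16 over the members and -0.18 over all tested genes. All LPS + Ska samples lay above all DMSO samples in 2 members, against 23.0% of all tested genes, and under them in 4, against 41.8%. These comparisons share samples, so the values of a gene in them are not separate evidence.

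**Figure D2:**
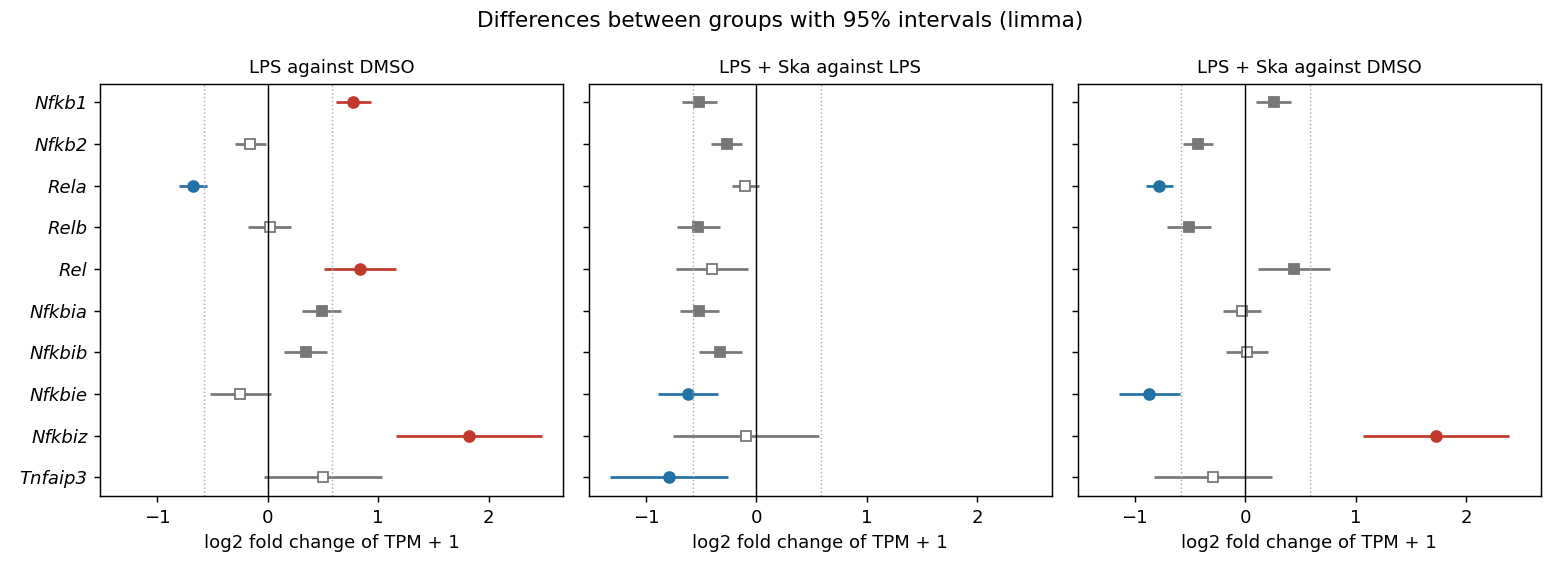
Log2 fold change of TPM + 1 (horizontal axis) of the 10 genes in the 3 comparisons, with 95% intervals from limma as bars. Red circles are genes called higher, blue circles genes called lower, filled squares genes with an adjusted p below 0.05 within the fold limits (dotted lines) and open squares the others. All 10 points of LPS + Ska against LPS lie left of 0, and Rela, at -0.68 and -0.78, is called lower than DMSO in both treated groups.

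Among the subunits, Nfkb1 (chr3:135584655-135691547), the precursor of p50, was measured at 84.9, 80.8 and 82.8 TPM in DMSO, at 143, 135 and 150.4 TPM in LPS, and at 99.5, 108 and 91.1 TPM in LPS + Ska, for replicates 5, 6 and 7. The 3 groups did not overlap, and LPS + Ska lay between DMSO and LPS. Nfkb1 rose 1.72-fold with LPS (log2 fold change 0.78 ± 0.071 SE, limma adjusted p = 1.7e-05). It was 0.698 times the LPS level in LPS + Ska (-0.52 ± 0.071, adjusted p = 0.0010), which did not reach the fold limit, and 1.20 times the DMSO level.

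Rela (chr19:5637483-5648130), which encodes p65, the main transactivating subunit in the canonical pathway, was measured at 69.4, 67.9 and 71.1 TPM in DMSO. It was at 43.1, 41.5 and 44.7 TPM in LPS, and at 40.2, 39.4 and 40.9 TPM in LPS + Ska. Both treated groups lay well under DMSO, and the 2 treated groups lay close together without overlap. Rela fell to 0.620 times its DMSO level with LPS (log2 fold change -0.68 ± 0.055, limma adjusted p = 8.4e-06) and to 0.578 times in LPS + Ska (-0.78 ± 0.055, adjusted p = 3.0e-06). Between LPS + Ska and LPS the difference was -0.099 (95% interval -0.22 to 0.024, adjusted p = 0.21).

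Rel (chr11:23736847-23770970), the c-Rel subunit of lymphoid and myeloid cells, was measured at 17.0, 17.9 and 24.3 TPM in DMSO, at 35.7, 34.8 and 36.7 TPM in LPS, and at 27.1, 31.5 and 22.6 TPM in LPS + Ska. LPS stood above both other groups, and LPS + Ska overlapped DMSO through DMSO replicate 7. Rel rose 1.81-fold with LPS (log2 fold change 0.84 ± 0.14, limma adjusted p = 8.2e-04). Against LPS, LPS + Ska differed by -0.40 (95% interval -0.73 to -0.074, adjusted p = 0.067). Against DMSO it differed by 0.44 (adjusted p = 0.024), within the fold limits, and without DMSO replicate 7 it was called higher (0.59, adjusted p = 0.0038).

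Nfkb2 and Relb encode the pair of the non-canonical pathway. Nfkb2 (chr19:46304320-46312385), the precursor of p52, was measured at 37.0, 39.7 and 40.8 TPM in DMSO, at 35.0, 33.8 and 36.2 TPM in LPS, and at 28.9, 28.7 and 29.0 TPM in LPS + Ska. The groups stepped down from DMSO to LPS to LPS + Ska without overlap. The log2 difference was -0.16 ± 0.062 between LPS and DMSO (limma adjusted p = 0.051) and -0.27 ± 0.062 between LPS + Ska and LPS (adjusted p = 0.012, and 0.056 on the recovered values). It was -0.43 ± 0.062 between LPS + Ska and DMSO (adjusted p = 2.5e-04), and none of these passed the fold limits. Relb (chr7:19606217-19629438) was measured at 19.5, 20.7 and 22.9 TPM in DMSO, at 21.3, 22.9 and 19.6 TPM in LPS, and at 14.4, 15.0 and 13.9 TPM in LPS + Ska. DMSO and LPS overlapped, and LPS + Ska lay under both. The log2 difference was 0.017 between LPS and DMSO (95% interval -0.18 to 0.21), and the other 2 were -0.53 ± 0.087 against LPS (limma adjusted p = 0.0026) and -0.51 ± 0.087 against DMSO (adjusted p = 6.9e-04). Relb was at 0.679 times the LPS level, just within the fold limit, and was called lower without LPS replicate 7, a tied column (-0.58, adjusted p = 0.0059).

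Taking the 5 subunits as parts of one sum, Nfkb1 made up 34.2 to 37.3% of their summed TPM in DMSO, 50.3 to 52.3% in LPS and 46.1 to 48.5% in LPS + Ska. Rela made up 29.4 to 30.5% in DMSO, 15.5% in each LPS sample and 17.7 to 20.7% in LPS + Ska. The share of Nfkb1 was higher and that of Rela lower in every treated sample than in any DMSO sample. Rel made up 7.46 to 10.1%, 12.7 to 13.0% and 11.5 to 14.2% in the 3 groups. Nfkb2 and Relb together made up 25.9% ± 0.96 (SD, n = 3) in DMSO, 20.3% ± 0.88 in LPS and 20.7% ± 1.0 in LPS + Ska. The difference from DMSO was -5.62 percentage points in LPS and -5.25 in LPS + Ska, each with p = 0.1 by a two-sided exact permutation test, the smallest p that 3 against 3 samples allow. LPS + Ska and LPS differed by 0.37 points (exact permutation p = 0.7). Benjamini-Hochberg adjustment over these 3 tests and the 3 of the inhibitor ratio gave values of 0.2 to 0.7. The treated columns are tied, so their SD and these tests rest on no more than 2 independent values in a treated group. On the recovered values the exact permutation p was 0.1 for each treated group against DMSO and 0.67 for LPS + Ska against LPS.

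**Figure D3:**
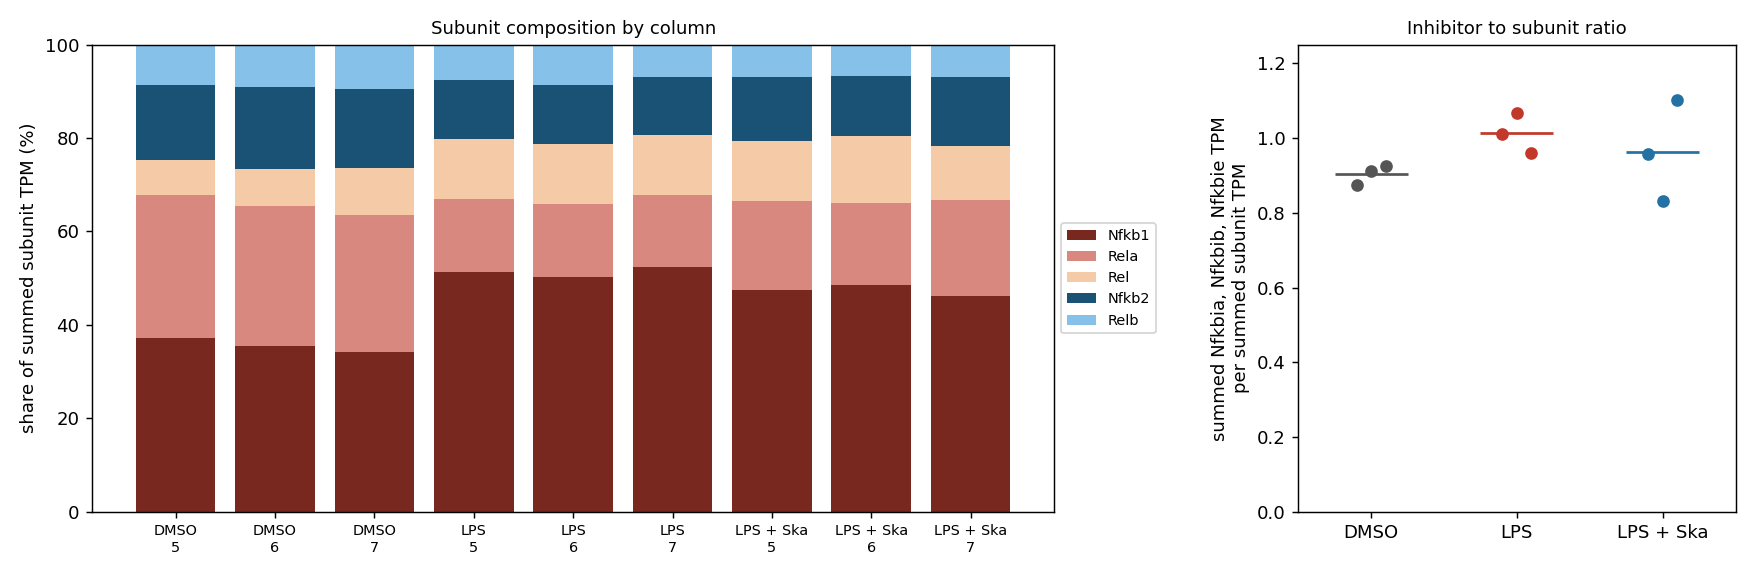
Left, share of each subunit gene in the summed TPM of the 5 subunit genes (percent), for each of the 9 samples. Right, ratio of the summed TPM of Nfkbia, Nfkbib and Nfkbie to the summed subunit TPM, with points for samples and lines for group means. Nfkb1 takes 34.2 to 37.3% in DMSO and at least 46.1% in the treated samples, and the ratio spans 0.831 to 1.10 in LPS + Ska, overlapping both other groups.

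Among the inhibitors, Nfkbia (chr12:55489410-55492647), which encodes IκBα, was measured at 142, 144 and 163 TPM in DMSO, at 210.5, 219 and 202 TPM in LPS, and at 147, 134 and 159.8 TPM in LPS + Ska. LPS stood above both other groups, and these overlapped. The log2 difference was 0.49 ± 0.078 between LPS and DMSO (limma adjusted p = 5.1e-04) and -0.52 ± 0.078 between LPS + Ska and LPS (adjusted p = 0.0017), neither past the fold limits. Without LPS + Ska replicate 7, a tied column, the second was called lower (-0.58, adjusted p = 0.0014). LPS + Ska and DMSO differed by -0.029 (95% interval -0.20 to 0.15), and this sign turned to 0.15 under median-ratio scaling of the columns.

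Nfkbib (chr7:28758251-28767512), IκBβ, was measured at 43.5, 47.7 and 49.7 TPM in DMSO, at 59.8, 55.6 and 64.1 TPM in LPS, and at 47.6, 43.3 and 51.8 TPM in LPS + Ska. As for Nfkbia, LPS stood above both other groups and these overlapped. The log2 difference was 0.34 ± 0.086 with LPS (limma adjusted p = 0.0068) and -0.33 ± 0.086 between LPS + Ska and LPS (adjusted p = 0.021). It was 0.017 between LPS + Ska and DMSO (95% interval -0.18 to 0.21). None of these passed the fold limits. Between LPS + Ska and LPS the limma adjusted p was 0.044 on the recovered values and 0.082 under median-ratio scaling (-0.23).

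Nfkbie (chr17:45555703-45563169), IκBε, differed from the other inhibitors. It was measured at 13.2, 14.8 and 10.8 TPM in DMSO, at 10.7, 11.0 and 10.3 TPM in LPS, and at 6.60, 7.28 and 5.91 TPM in LPS + Ska. DMSO and LPS overlapped, and all LPS + Ska samples lay under both. LPS and DMSO differed by -0.25 (95% interval -0.52 to 0.027, limma adjusted p = 0.11). Nfkbie fell to 0.619 times the LPS level in LPS + Ska (-0.62 ± 0.12, adjusted p = 0.0058) and to 0.511 times the DMSO level (-0.87 ± 0.12, adjusted p = 2.0e-04). The fold limit against LPS was missed under median-ratio scaling (-0.53, adjusted p = 0.012) and without LPS + Ska replicate 7, a tied column (-0.55, adjusted p = 0.016).

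The summed TPM of Nfkbia, Nfkbib and Nfkbie per summed subunit TPM was 0.903 ± 0.026 (SD, n = 3) in DMSO, 1.01 ± 0.054 in LPS and 0.963 ± 0.14 in LPS + Ska. The log2 ratio was 0.17 higher in LPS than in DMSO (two-sided exact permutation p = 0.1, the smallest possible). The mean log2 difference of LPS + Ska was -0.081 from LPS and 0.085 from DMSO (exact permutation p = 0.6 for both). No DMSO sample reached the lowest LPS sample, whereas LPS + Ska spanned both groups. The tied columns limit these SD and tests in the same way. On the recovered values the exact permutation p was 0.1 for LPS against DMSO. It was 0.67 for LPS + Ska against LPS and 0.4 against DMSO.

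Nfkbiz (chr16:55811375-55838899) encodes IκBζ, a nuclear co-regulator that is needed for a subset of secondary response genes such as Il6. It was measured at 7.38, 8.22 and 20.6 TPM in DMSO, at 41.0, 38.1 and 44.0 TPM in LPS, and at 38.3, 36.6 and 39.9 TPM in LPS + Ska. The treated groups overlapped each other and lay above DMSO, in which replicate 7 stood over the other 2. Nfkbiz rose 3.40-fold with LPS (log2 fold change 1.82 ± 0.29, limma adjusted p = 5.4e-04) and 3.17-fold in LPS + Ska against DMSO (1.73 ± 0.29, adjusted p = 6.7e-04). Without DMSO replicate 7 these were 2.26 and 2.16 (adjusted p = 1.2e-06 and 1.7e-06). LPS + Ska and LPS differed by -0.097, with a 95% interval of -0.76 to 0.56.

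Tnfaip3 (chr10:19000910-19015657), A20, which removes and edits the ubiquitin chains that activate the IκB kinases, was measured at 5.85, 7.87 and 13.7 TPM in DMSO. It was at 12.7, 11.0 and 14.4 TPM in LPS, and at 6.86, 6.27 and 7.46 TPM in LPS + Ska. DMSO replicate 7 lay among the LPS samples, and LPS + Ska lay under every LPS sample. LPS and DMSO differed by 0.50 (95% interval -0.036 to 1.03, limma adjusted p = 0.096). Without DMSO replicate 7 that difference was 0.80 and called higher (adjusted p = 0.0026). Tnfaip3 fell to 0.542 times the LPS level in LPS + Ska (-0.79 ± 0.24, adjusted p = 0.035). The call was lost on the recovered values (adjusted p = 0.10), with no filter on mean TPM (0.083) and without any of the 6 treated columns in turn (0.052 to 0.11). Those columns are tied, so leaving 1 out does not remove its value from the group. LPS + Ska and DMSO differed by -0.29 (adjusted p = 0.30), and by 0.010 without DMSO replicate 7.

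The strand setting of the counting is not given in the sources used here, so genes that overlap on the opposite strand are uncertain. Nfkb2 overlaps AC114539.1 (means of 6.62, 3.63 and 3.74 TPM in DMSO, LPS and LPS + Ska) and Psd (7.83, 5.77 and 2.67 TPM). Nfkbib overlaps Sirt2 by 778 bases, and Sirt2 had means of 49.3, 30.8 and 21.9 TPM. Nfkb1 overlaps Gm43430 on its own strand, at 0.0782 to 0.136 TPM.

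Beyond the members, 35 further genes of the pathway were listed and all passed the filter. With LPS, 5 of them rose and 8 fell (14.3% and 22.9%), close to the 12.7% higher and the 2559 of 12819 genes lower over all tested genes, and the median log2 fold change was -0.0076. Under median-ratio scaling 8 were called higher and 6 lower. Among 7 other IκB proteins and subunit modulators, Bcl3, a nuclear IκB partner of p50 and p52, rose (0.96, adjusted p = 1.4e-05), as did Nkrf, a transcriptional repressor (0.83). Nfkbid, a nuclear IκB, fell (-0.68), and so did Nkiras2 (-0.74), a Ras-like protein that binds IκB. Among 9 genes of the IKK complex and the kinases above it, Tab2 rose (0.67) and Tab1 fell (-1.35, from 23.9 to 8.79 TPM), both being adaptors of the kinase TAK1. Map3k14, the NIK kinase of the non-canonical pathway, fell (-1.13, from 16.2 to 6.84 TPM). Of 4 genes of the complex that degrades NIK and 4 of the ligase that marks IκB, 2 and 3 had an adjusted p below 0.05. Their fold changes lay inside the limits. Over all tested genes, 7734 of 12819 had an adjusted p below 0.05 with LPS (limma), so these counts do not set the 2 groups apart.

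Of 11 genes of ubiquitin editing and A20 partners, 2 rose and 4 fell with LPS. Tnip1, an A20-binding protein, rose from 52.9 to 106 TPM (log2 fold change 0.99, limma adjusted p = 1.1e-06), and Itch, a ubiquitin ligase that works with A20, rose (0.63). Tnip2 and Tnip3, the other A20-binding proteins, fell (-0.87 and -0.88), as did Rbck1 and Sharpin (both -0.65), subunits of the linear ubiquitin chain complex. In LPS + Ska compared with LPS, limma called 0 of the 35 genes. Of them 19 had an unadjusted p below 0.05, 6 higher and 13 lower, and 13 had an adjusted p below 0.05, 5 higher and 8 lower, with a median log2 fold change of -0.076. Over all tested genes 6.14% were called lower and 3.35% higher, with a median of -0.096. There 27.8% were lower with an unadjusted p below 0.05, and 19.7% with an adjusted p below 0.05. Values in that comparison were -0.41 for Tnip1, 0.34 for Tnip3 and -0.48 for Rbck1 (adjusted p = 0.0011, 0.0065 and 0.0010). Against DMSO, LPS + Ska had 2 genes higher (Bcl3 and Nkrf) and 8 lower, among them Traf2 (-0.87, limma adjusted p = 2.1e-04), an adaptor that takes part in degrading NIK. These were 5.71% and 22.9% of the list, against 11.4% and 25.3% of all tested genes, so neither share was above that of all genes. The balance of the list turned under median-ratio scaling, to 9 higher and 7 lower. Its genes called higher were 5 without LPS + Ska replicate 7 and 4 without DMSO replicate 7.

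A list of 30 NF-κB target genes was also examined, of which 28 passed the filter and Csf1 and Csf2 did not. The list was chosen with earlier results of these data known, so its counts describe these genes and test nothing. Whether NF-κB activity set their levels was not tested. With LPS 20 of the 28 rose (71.4%) and limma called 0 lower (24 had an unadjusted p below 0.05, 2 of them lower), with a median log2 fold change of 1.96. Over all 12819 tested genes 12.7% were called higher and 2559 genes lower, with a median of -0.067. Ccl2, a monocyte chemokine, rose 41.8-fold in mean TPM, from 4.64, 6.30 and 5.82 TPM to 234, 241 and 226 TPM. Csf3 and Nos2 were listed at 0 in all 3 DMSO samples and lay at 41.1 to 43.1 and 36.2 to 38.8 TPM in LPS. In LPS + Ska compared with LPS, 7 target genes fell and 1 rose (25.0% and 3.57%), with a median of -0.29. Over all tested genes these shares were 6.14% and 3.35%, with a median of -0.096. The 3 largest decreases on the log2(TPM + 1) scale were those of Ccl5, Il6 and Il1a, at -2.86, -2.08 and -1.95. Clec4e, a lectin receptor, rose by 0.66 (limma adjusted p = 0.0048). The members' own log2 fold changes in that comparison ran from -0.79 to -0.097. Against DMSO, 20 target genes were higher in LPS + Ska and 2 lower (71.4% and 7.14%), with a median of 1.01. Over all tested genes 11.4% were higher and 25.3% lower, with a median of -0.18.

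**Figure D4:**
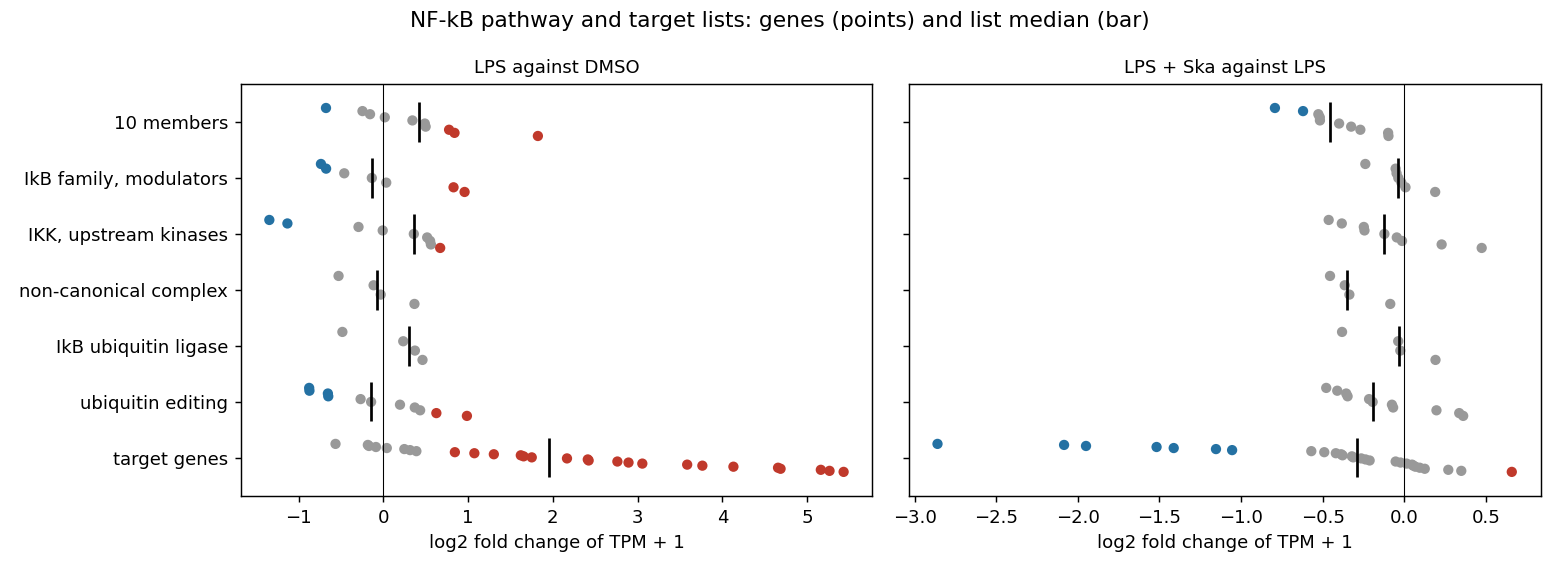
Log2 fold change of TPM + 1 (horizontal axis, a scale for each panel) for each tested gene of the members, of 5 groups of other pathway genes and of the target genes, for LPS against DMSO (left) and LPS + Ska against LPS (right). Points are genes, red where called higher and blue where called lower, and black bars are list medians. The target genes reach 5.43 on the left and -2.86 on the right, whereas the members stay between -0.79 and -0.097 on the right.

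The genes whose profile over the 9 samples was nearest to that of a member were found by the distance between centred log2(TPM + 1) values. Nearest to Rela were Cd2bp2 and Arhgdia, at distances of 0.0953 and 0.108, against a median of 1.16 over the tested genes. Nearest to Nfkb2 were Lrsam1 (0.109) and Rrp1 (0.112), against a median of 0.923. For Nfkbia they were AC117239.2 (0.175) and Timm17a (0.223), against 1.13, and for Tnfaip3 Mir6951 (0.497) and BC065397 (0.539), against 1.49. The neighbours of Tnfaip3 lay farther from it than those of the other 3 genes from theirs.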

How the data were processed

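RNA from 9 samples of RAW264.7 cells, 3 per group, was sequenced from NEBNext Ultra libraries. The authors deposited 1 table of TPM, normalized to transcript length and a fixed total, for 55401 genes by Ensembl identifier, of which 55141 matched a symbol. The submitters' processing notes name fastp 0.20.1, HISAT2 2.2.1, StringTie 2.0 and build mm10. The annotation and the strand setting are not given in the sources used here. The step that tied the columns is not described there either. Depth is unknown.

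The members, gene lists and tests were chosen with earlier results of these data known. Groups came from the labels. The log2(TPM + 1) values of all 9 columns were fitted together by lmFit and trended eBayes (limma 3.58.1, R 4.3.3) for the 12819 genes whose mean reached 1 TPM. Fold changes on this scale understate those of low genes. Called genes had a Benjamini-Hochberg adjusted p below 0.05 over all tested genes with a fold change over 1.5 or under 0.67. The fit was tested on simulated data with independent columns, which did not examine the effect of the tied columns. Summed shares and ratios were compared by two-sided exact permutation. Named genes were all members, pathway genes called in at least 1 comparison, and the 2 nearest genes to Rela, Nfkb2, Nfkbia and Tnfaip3. They also included the 3 target genes with the largest called log2(TPM + 1) fold change in each direction. These were taken for LPS against DMSO and for LPS + Ska against LPS. Locations are from GENCODE M21 and promoters from RefSeq, both on GRCm38, the assembly of mm10. The alternatives tried were adjusted p alone, recovered values, each column left out in turn, a replicate block, median-ratio scaling, a filter at a mean of 5 TPM or none, a pseudocount of 0.1, no trend, and fits of only the 2 groups compared. Python 3.11.15 and matplotlib 3.10.9 drew the figures.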

Additional observations from a re-analysis of the deposited data

How the results depend on the processing

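When each member's values were recomputed under 18 alternatives, 506 values (including those under settings that cannot move a fold change) kept direction and side of the thresholds. Of the others, 16 passed a threshold they had missed, 10 lost a call and 8 turned in sign. Most of the 16 passed under adjusted p alone, where the fold limit was dropped and the fold change stayed the same. The 10 lost calls were all of Tnfaip3 or Nfkbie in LPS + Ska against LPS. For the log2 fold changes that turned, LPS against DMSO gave -0.033 and -0.035 for Relb without DMSO replicate 5 and LPS replicate 6 (range over columns left out -0.035 to 0.077). LPS + Ska against DMSO gave 0.15 for Nfkbia under median-ratio scaling. Without DMSO replicate 7 or LPS + Ska replicate 6 it gave 0.033 and 0.035 for Nfkbia (range -0.091 to 0.035). Without DMSO replicate 5 or LPS + Ska replicate 7 it gave -0.036 and -0.045 for Nfkbib (range -0.045 to 0.081), and without DMSO replicate 7 it gave 0.010 for Tnfaip3 (range -0.54 to 0.010). By adjusted p alone the genes called higher and lower were 3354 and 4380 for LPS against DMSO, 1139 and 2524 for LPS + Ska against LPS, and 2915 and 5201 for LPS + Ska against DMSO. For the same comparisons it gave 5 members higher and 1 lower, 0 higher and 7 lower, and 3 higher and 4 lower. It gave 14 pathway genes higher and 11 lower, then 5 and 8, then 9 and 14, and 21 target genes higher and 1 lower, then 1 and 14, then 20 and 4. The main counts were 1630 and 2559, 429 and 787, and 1457 and 3243 genes. A pseudocount of 0.1 gave 1 target gene lower for LPS against DMSO, and a mean TPM of at least 5 gave 516 genes lower for LPS + Ska against LPS. For the latter comparison 1 member was called lower in place of 2 with no filter, under median-ratio scaling and on the recovered values. Median-ratio scaling shifted the median log2 fold change by 0.074, 0.091 and 0.16 in the 3 comparisons. It gave 8 pathway genes higher and 6 lower for LPS against DMSO, and 9 higher and 7 lower, with 2 members higher, for LPS + Ska against DMSO. It moved the share of higher calls from 35.3% to 52.0% for LPS + Ska against LPS and from 31.0% to 48.4% against DMSO. A treated column left out still has its value held by the columns tied to it. Leaving out each column in turn gave 1 to 2 members lower for LPS + Ska against LPS and 1 to 2 members higher against DMSO. It gave 0 to 1 pathway genes higher for LPS + Ska against LPS, 2 to 5 against DMSO (4 without DMSO replicate 7 and 5 without LPS + Ska replicate 7), and 0 to 1 target genes lower for LPS against DMSO. The log2 inhibitor ratio ranged from -0.18 to 0.021 for LPS + Ska against LPS (0.021 without LPS + Ska replicate 6) and from -0.017 to 0.19 against DMSO (-0.017 without LPS + Ska replicate 7). The Nfkb2 and Relb share ranged from -0.15 to 0.87 points for LPS + Ska against LPS, with -0.062 when LPS replicate 7 was left out and -0.15 when LPS + Ska replicate 7 was. The cause of these changes was not tested, beyond the fewer samples or other limits that each setting entails. Deviations of same-numbered samples correlated at 0.384, 0.151 and 0.128 between LPS and LPS + Ska, whose columns are tied, and at -0.032 to 0.080 in the other pairs, so sample numbers were not treated as a pairing. The replicate block gave 1649 and 2586, 427 and 771, and 1469 and 3260 genes higher and lower, and changed no call of a member. Without depth, nothing can be said on counting error of the low transcripts Nfkbie and Tnfaip3.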
